A study of Mus musculus with 24 samples.

Results

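Cytosolic ribosomal protein genes were followed across kidney cortex of old mice with and without FGF21, on a low or a normal protein diet. The genes were taken by symbol: Rpl or Rps with a number and at most 1 of the letters a, x or l, together with Rplp0, Rplp1, Rplp2 and Rpsa, and without copies named as pseudogenes. This gave 78 of 16921 genes in the tables, 47 of the large subunit and 31 of the small subunit. All 78 were among the 15165 genes tested. The rule used only their names, but it was set with earlier results of these data known.

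The mice were males on the C57BL6/J background, 22 months old, fed from 3 months of age on diets in which casein supplied the protein. The 4 groups of 6 libraries were FGF21 KO mice on low protein with 5% casein (KO_LP), FGF21 KO mice on normal protein with 20% casein (KO_NP), and wild type mice on the same diets (WT_LP and WT_NP). FGF21 is a hormone, secreted mainly by the liver, whose circulating level goes up on diets poor in protein, and the questions were what the diet changes in the old kidney and what FGF21 contributes. The labels do not say how the gene was inactivated and give no batch, and replicate numbers are only names. Libraries were made with Lexogen QuantSeq, which reads the 3′ end of each transcript, so a level in CPM (a gene's counts relative to its library's TMM-scaled total, the usual CPM unit) counts transcript ends and is not divided by length.

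Ribosomal proteins assemble with ribosomal RNA in the nucleolus into a small subunit, which reads the mRNA, and a large subunit, which joins amino acids. Their mRNAs are among the most abundant of the cell, and most begin at a C followed by a run of pyrimidines, the 5′ TOP motif, through which the mTORC1 pathway sets their translation according to amino acid supply. Translation itself was not measured here, only the amount of mRNA. Mammalian genomes also carry a large number of processed pseudogenes of these genes, which are near copies of the mRNA elsewhere in the genome.

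Library totals ran from 8469102 counts in KO_LP 1 to 21063652 counts in WT_NP 2. Fgf21 itself was not analysed here, since it has no row. Klk1b22, a kallikrein gene on the same chromosome, lay between 49.2 and 131.7 CPM in the 12 KO libraries and between 0.26 and 1.74 CPM in the 12 WT libraries, so each library followed its genotype label at that gene. The 12 proximal tubule markers listed for the tissue had counts in every library. KO_LP 4 stood apart, with the lowest share of mitochondrially encoded counts (18.5%) and a TMM factor of 1.24.

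Summed over the 78 genes, ribosomal protein mRNAs made up 3.04% ± 0.41 of counts in KO_LP (SD, n = 6 in every group), 2.40% ± 0.21 in KO_NP, 2.76% ± 0.37 in WT_LP and 2.70% ± 0.18 in WT_NP. The KO_LP libraries 1 to 6 held 2.77%, 3.27%, 2.68%, 3.73%, 2.72% and 3.08%, and the KO_NP libraries 2.07%, 2.68%, 2.28%, 2.52%, 2.37% and 2.50%. KO_LP 3 lay below the highest KO_NP library, KO_NP 2, and the other 5 KO_LP libraries lay above all KO_NP libraries. The WT_LP libraries 1 to 6 held 2.43%, 2.42%, 3.16%, 3.28%, 2.58% and 2.68%, and the WT_NP libraries 2.98%, 2.68%, 2.60%, 2.44%, 2.75% and 2.72%. In WT the NP range lay inside the LP range, and KO_NP was the group with the lowest mean. The mitochondrially encoded share was lower in KO_LP than in KO_NP and similar in the WT groups, with 23.1% ± 2.66 in KO_LP, 28.1% ± 1.54 in KO_NP, 25.9% ± 1.23 in WT_LP and 25.3% ± 1.97 in WT_NP. Of counts from nuclear genes alone, the 78 genes held 3.95% in KO_LP, 3.34% in KO_NP, 3.71% in WT_LP and 3.61% in WT_NP.

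**Figure D1:**
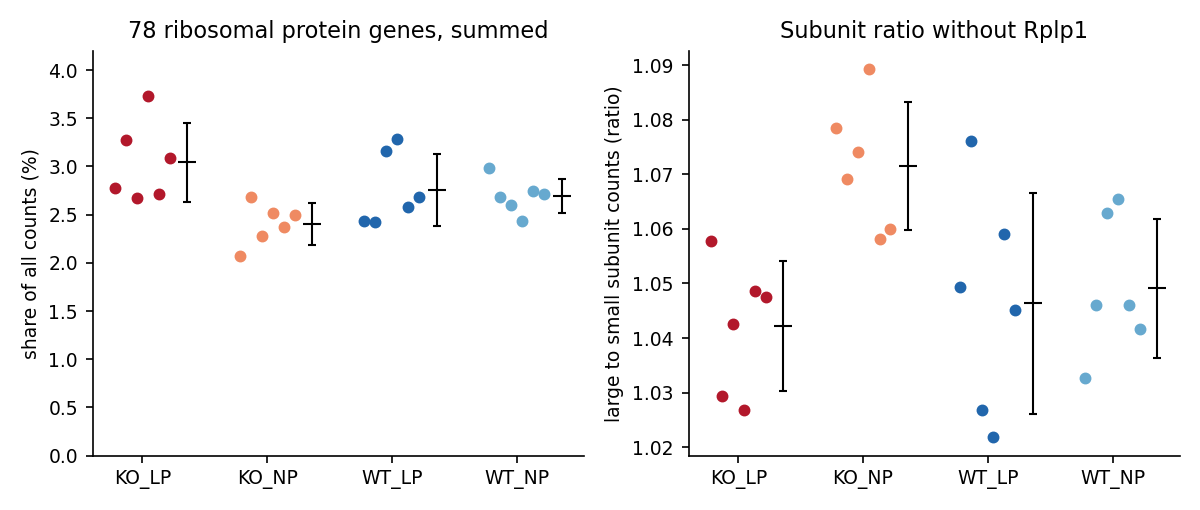
Left, the summed share of the 78 ribosomal protein genes in all counts (%), and right, the ratio of large to small subunit counts without Rplp1, for each of 6 libraries in KO_LP, KO_NP, WT_LP and WT_NP; points are libraries, and the bars beside them are mean and SD. KO_NP has the lowest mean share (2.40%) and the highest mean ratio (1.07), and the ratio axis does not start at 0.

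Levels differed far more between genes than between groups. Mean levels over 24 libraries ran from 3.06 CPM for Rpl3l to 990.1 CPM for Rps14, with a median over the genes of 305 CPM, 12 genes under 100 CPM and 14 over 500 CPM. The highest were Rps14, a small subunit protein long studied for its part in human anaemia, Rplp1 (966 CPM), an acidic protein of the ribosomal stalk, and Rps21 (919 CPM). The lowest after Rpl3l were Rpl24, a large subunit protein at the interface of the subunits, with 6.58 CPM, and Rps6, the small subunit protein phosphorylated by S6 kinase, with 15.6 CPM.

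Reads that fit a pseudogene copy equally well may touch these levels. In a window from 250 bases before the end of the stop codon to 50 bases after it, the median gene had 78.2% of its 50-base stretches in common with a transcript of another gene. Of the 78 genes, 5 had every stretch in common (Rpl5, Rpl9, Rpl10, Rpl36a and Rps27) and 3 had none, Rpl3l and Rpl4 among them. For Rpl24 the shared part was 80.8% and for Rps6 it was 82.7%, and counts given to their pseudogene copies came to 13.2% and 22.4% of gene and copies together. Across the 78 genes the level and the shared part had a Spearman rho of -0.33, which describes genes in the same libraries. How shared reads were assigned by the authors is not given in the sources used here, so the order of levels is that of the assigned reads.

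**Figure D2:**
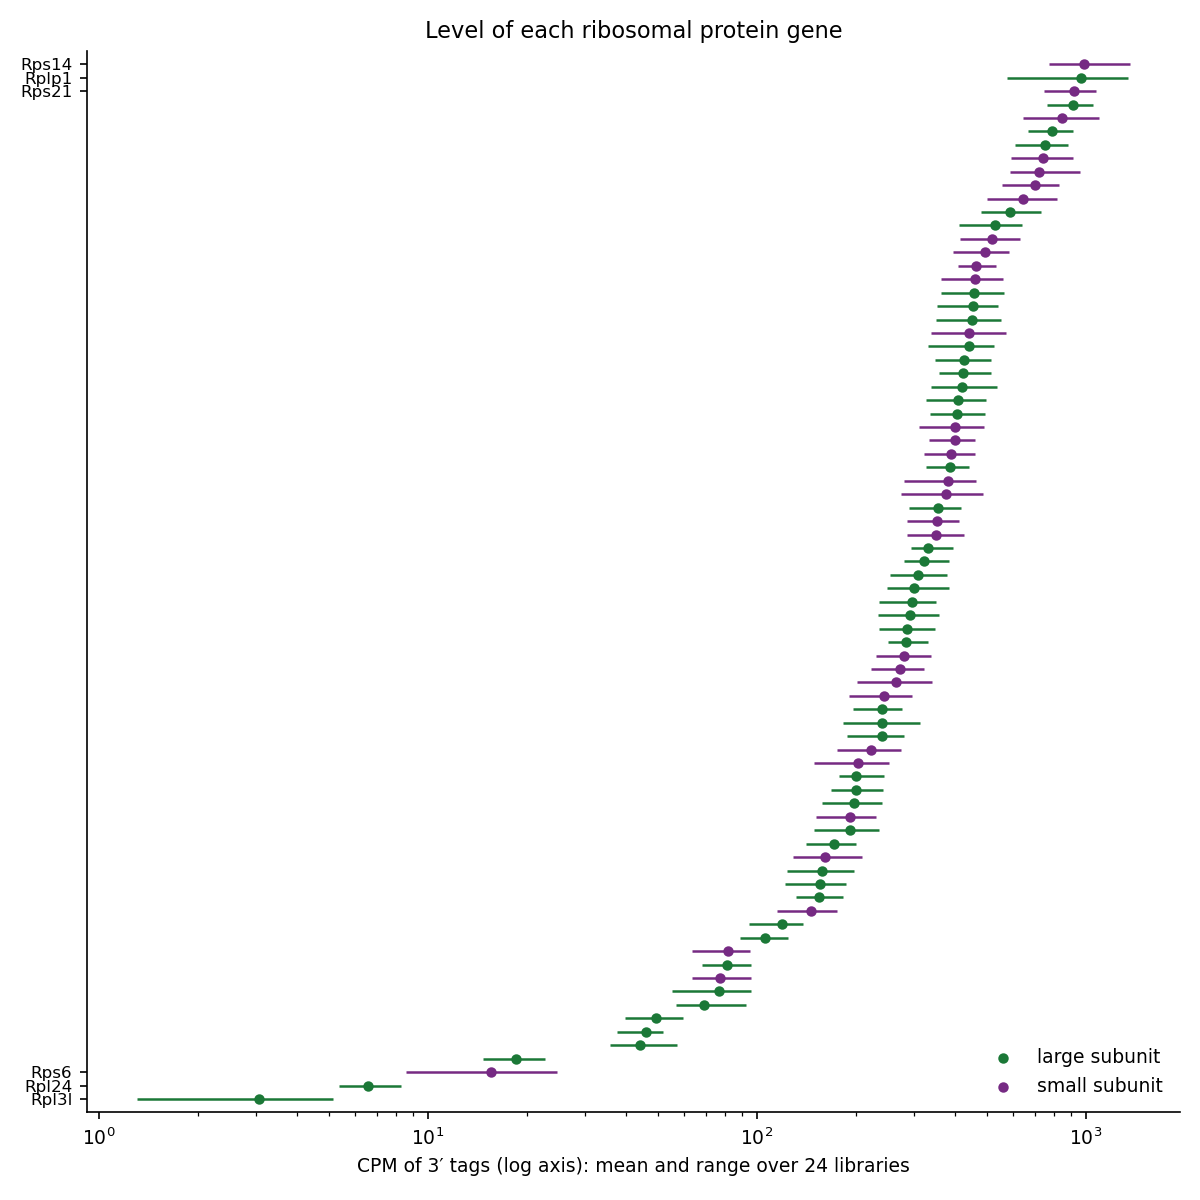
Mean level of each of the 78 genes in CPM (log axis) with the range over 24 libraries; green is the large subunit and purple the small subunit, and the 3 highest and 3 lowest genes are named. Rps14 is at the top with 990.1 CPM and Rpl3l at the bottom with 3.06 CPM.

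The paralogs differed in level from their parents. Rpl3l, which replaces Rpl3 in striated muscle, had 2.86 ± 0.90 CPM in KO_LP, 3.23 ± 0.86 in KO_NP, 3.05 ± 1.09 in WT_LP and 3.11 ± 1.15 in WT_NP, against 351 ± 34.2, 324 ± 28.0, 325 ± 24.4 and 329 ± 9.17 CPM for Rpl3 in the same groups. Rps27l, a p53 target and paralog of Rps27, had 179 ± 24, 197 ± 19.9, 200.1 ± 21 and 195 ± 12.6 CPM in KO_LP, KO_NP, WT_LP and WT_NP. Rps27, its parent, had 419 ± 44.6, 346 ± 38.8, 383 ± 34.5 and 381 ± 37.7 CPM there. The ranges of the 4 groups overlapped for both paralogs.

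Around the transcription start, the pyrimidine run of the TOP class was more frequent in these genes than in the genome. RefSeq start regions (build GRCm38.p6) were available for 58 of the 78 genes. A C followed by at least 4 letters that are each C or T stood exactly at the start in 22.4% of the 58 genes and in 3.01% of the 27025 genes with such a region. Within 5 bases of the start the shares were 48.3% and 21.2%. On the other strand the same run, searched in the same places, was found within 5 bases in 13.8% of the 58 genes and in 24.4% of all genes. Shown are 20 bases before and 20 bases from the start for some genes named in the diet or genotype comparisons and for both paralogs. Capitals mark the C nearest to the start that has at least 4 such letters after it, and the C and T letters that follow. Pyrimidines directly before that C stay in small letters. Each region is written 5′ to 3′ on the gene's strand, and where RefSeq gives several starts the one with the nearest run is shown.
Rps24, chr14:24490658-24490697, plus strand: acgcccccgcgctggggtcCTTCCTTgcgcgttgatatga
Rps19, chr7:24884893-24884932, plus strand: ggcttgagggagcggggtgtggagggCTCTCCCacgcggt
Rpsa, chr9:120127746-120127785, plus strand: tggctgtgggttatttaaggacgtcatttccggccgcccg
Rps27, chr3:90213629-90213668, minus strand: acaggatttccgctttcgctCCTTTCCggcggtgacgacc
Rpl12, chr2:32961692-32961731, plus strand: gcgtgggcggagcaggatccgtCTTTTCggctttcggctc
Rpl13a, chr7:45128726-45128765, minus strand: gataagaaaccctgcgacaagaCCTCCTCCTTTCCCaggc
Rps6, chr4:86857348-86857387, minus strand: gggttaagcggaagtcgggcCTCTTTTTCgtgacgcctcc
Rpl3l, chr17:24727806-24727845, plus strand: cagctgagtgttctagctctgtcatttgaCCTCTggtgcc
Rps27l, chr9:66946066-66946105, plus strand: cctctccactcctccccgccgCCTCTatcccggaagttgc
In Rps6 and Rps27 the capitals began at the annotated start itself and in Rps24 1 base before it. Each of these genes has further pyrimidines directly before the capitals, so the whole pyrimidine stretch began earlier. In Rpsa no such run lay within the 40 bases shown. The match is a description of these letters and says nothing of how the mRNAs were translated.

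In KO mice, 4 ribosomal protein genes rose on LP against NP, and all 4 belong to the small subunit. Among them are Rps24 and Rps19, small subunit proteins needed to mature its ribosomal RNA and mutated in human Diamond-Blackfan anaemia, and Rpsa, a small subunit protein that is also known as the laminin receptor. No member fell. The sizes of these 3 were small, from 0.24 to 0.33 on the log2 scale.

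Rps24 (chromosome 14, 24487125 to 24496959) had 762.3, 819, 722, 963, 809 and 872 CPM in KO_LP 1 to 6, against 588, 627, 599, 709, 737 and 665 CPM in KO_NP 1 to 6. KO_LP 3 was the only KO_LP library under the highest KO_NP library, KO_NP 5. The log2 fold was 0.33 (SE 0.0888, edgeR quasi-likelihood, adjusted p = 0.0323), with 6 of 6 KO_LP libraries above the KO_NP mean. Its pseudogene copies held 10.1% of the counts of gene and copies together.

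Groups that did not overlap were no more frequent among the 78 genes than elsewhere. Of all genes tested, 1.65% were higher in KO_LP without overlap and 2.06% lower, against 1.28% (1 gene) and 0 of the 78 genes.

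Rpsa (chromosome 9, 120127689 to 120132369) had 161, 187, 166, 209, 156 and 162 CPM in KO_LP 1 to 6, against 128, 162, 145, 154, 148 and 144 CPM in KO_NP 1 to 6. KO_LP 4 and KO_LP 2 were high, and the other 4 KO_LP libraries lay near KO_NP 2, the highest of its group. The log2 fold was 0.24 (edgeR adjusted p = 0.0492). Rps19 (chromosome 7, 24884371 to 24889806) had 434, 479, 395, 491, 372 and 468 CPM in KO_LP 1 to 6, against 311, 404, 347, 363, 390.1 and 375 CPM in KO_NP 1 to 6, with overlap, and its log2 fold was 0.27 (edgeR adjusted p = 0.0492). Both had 6 of 6 KO_LP libraries above the KO_NP mean.

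**Figure D3:**
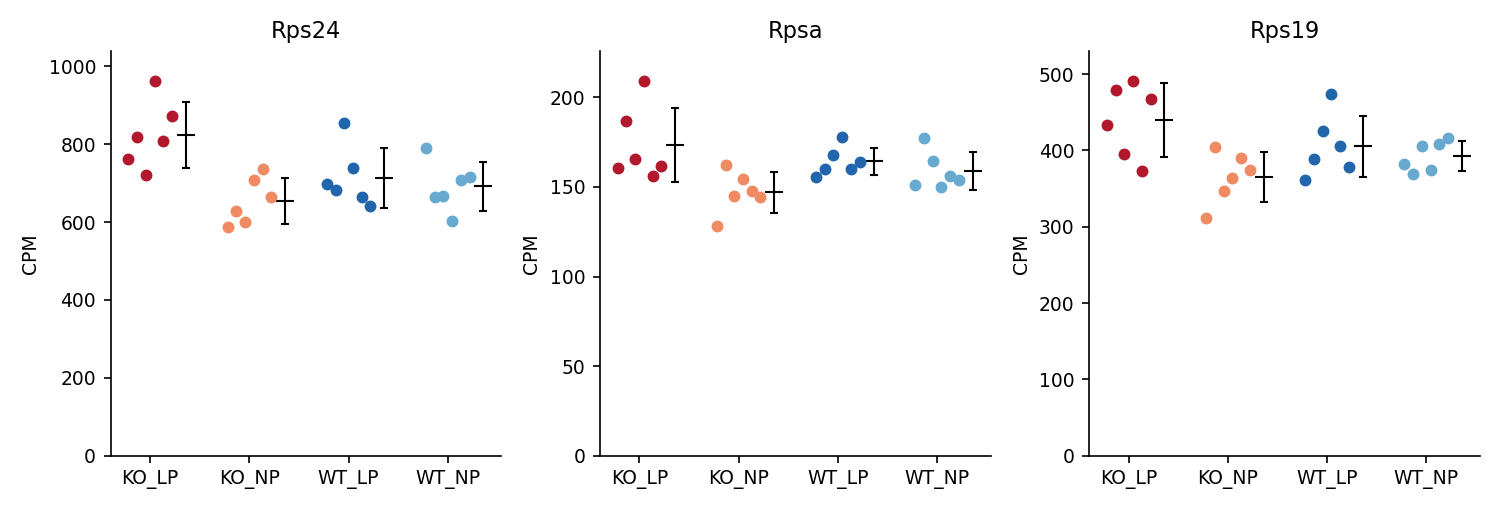
Level in CPM of Rps24, Rpsa and Rps19 in each library of KO_LP, KO_NP, WT_LP and WT_NP; points are libraries, and the bars beside them are mean and SD (n = 6). In each panel KO_LP has the highest mean and KO_NP the lowest.

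The 4 genes called are 5.13% of the 78, where 7.17% of all genes tested were called in this comparison, 3.59% higher and 3.58% lower. The share called is thus near that of all genes. The calls were close to the threshold, and single libraries or the choice of scaling or test decided them. Of the 8 alternatives that leave out no single library, Rps24 was called in 8, Rpsa in 4 and Rps19 in 3, and with DESeq2 size factors in place of TMM, or without the filter on low counts, Rpsa and Rps19 were not called. With 1 of the 24 libraries left out in turn, all 4 were called together in 3 of 24 fits, and 0 members were called without KO_LP 4, KO_LP 6, KO_NP 1, KO_NP 3, KO_NP 5 or KO_NP 6. Rps24 kept its call in 17 of these fits and lost it without those 6 libraries or KO_NP 2, with adjusted p up to 0.0937. Rps19 kept its call in 7 and Rpsa in 6, and the log2 folds of Rps24, Rps19 and Rpsa stayed above 0 throughout, from 0.18 to 0.37.

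As a group the 78 genes had a median log2 fold of 0.15 in KO on LP, with 71 above 0 and 7 below. The median was 0.03 over all genes tested and -0.13 over 764 genes whose level was within 0.5 to 2 times the median level of the ribosomal protein genes. Ribosomal protein genes within that range are counted among the 764. At an unadjusted p under 0.05 there were 29 of the 78 (37.2%), against 27.9% of all genes and 45% of the genes at like levels. The small subunit had a median log2 fold of 0.19, with 29 of 31 above 0, and the large subunit one of 0.13, with 42 of 47 above 0. The small subunit median exceeded the large one by 0.054 to 0.075 in the main analysis and each of its alternatives, a difference that was not tested. The ratio of large to small subunit counts, taken without Rplp1, was 1.04 ± 0.012 in KO_LP, 1.07 ± 0.012 in KO_NP, 1.05 ± 0.020 in WT_LP and 1.05 ± 0.013 in WT_NP. The KO groups just separated, with a highest value of 1.0577 in KO_LP 1 and a lowest of 1.0582 in KO_NP 5, and the KO_NP range overlapped those of both WT groups.

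Outside the called genes, the largest positive folds in KO on LP were those of Rpl12, a protein at the base of the stalk (0.30, edgeR adjusted p = 0.0666), Rps6 (0.29, adjusted p = 0.396) and Rps27 (0.27, adjusted p = 0.0629). Of the highest genes, Rps14 was at 1135 ± 141 CPM in KO_LP and 956 ± 128 CPM in KO_NP (log2 fold 0.25, edgeR adjusted p = 0.129), and Rps21 had a log2 fold of 0.10. Rps27a, which encodes a fusion of ubiquitin with a small subunit protein, was at 254 ± 20.4 CPM in KO_LP and 214 ± 26.8 CPM in KO_NP (log2 fold 0.25, edgeR adjusted p = 0.0870). The stalk proteins that bind elongation factors had log2 folds of 0.17 for Rplp0, 0.13 for Rplp2 and -0.16 for Rplp1. The lowest folds were those of Rpl3l (-0.19), Rplp1, Rps27l (-0.14), Rps2 (-0.07) and Rpl15 (-0.06), and none of these passed the test. The median over 78 genes stayed between 0.107 and 0.182 when any of the 24 libraries was left out.

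Other cells and segments moved with the same comparison, in which 3.59% of all genes tested were called higher and 3.58% lower. Macrophage and dendritic cell markers summed to 613 to 2175 CPM in KO_LP and 454 to 799 CPM in KO_NP, with 4 of 13 called higher, 0 lower and 0 of 13 at 0 in any library. T and NK cell markers summed to 36.1 to 166.5 CPM in KO_LP and 23.2 to 56.0 CPM in KO_NP (1 of 11 higher). B and plasma cell markers summed to 1544 to 20730 CPM in KO_LP and 1590.0 to 3914 CPM in KO_NP (0 of 9 tested called). In that order the macrophage, T cell and B cell lists had median log2 folds of 0.94, 1.15 and 1.65. Above 0 were 13 of 13, 11 of 11 and 9 of 9 markers. At an unadjusted p under 0.05 in edgeR were 11 of 13, 10 of 11 and 8 of 9, against 27.9% of all genes tested. Proximal tubule markers summed to 5090 to 9210 CPM in KO_LP and 9572 to 11330 CPM in KO_NP, without overlap, with 0 of 12 called higher and 2 lower. KO_LP 4, which had the highest share of ribosomal protein counts, also had the highest macrophage and T cell sums. In the other groups, too, the library with the highest share had the highest macrophage sum. These were KO_NP 2 (799 CPM), WT_LP 4 (1509 CPM) and WT_NP 1 (1670 CPM). Of these libraries only WT_NP 1 also had the lowest proximal tubule sum of its group (6665 CPM). KO_LP 5, next in its group in macrophage and T cell sums (1167 and 94.6 CPM), had a share of 2.72%. KO_LP 6 had a share of 3.08%, with the lowest T cell sum of the group (36.1 CPM) and the lowest proximal tubule sum of all 24 libraries (5090 CPM). KO_LP 3, with the lowest share of its group, had its highest proximal tubule sum (9210 CPM). Of the other lists, podocytes had 1 of 5 markers higher, the collecting duct 1 of 6 lower, and the thick ascending limb, distal tubule, endothelial, fibroblast, adipocyte, adrenal cortex and red cell lists had 0 called. In such bulk samples, fewer cells of a type and less RNA per cell cannot be told apart, and the part of cell makeup in the ribosomal protein values was not tested.

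Genes that work with the ribosome were read from lists, beside a share over all genes tested of 3.59% called higher and 3.58% lower in KO on LP. Of 66 genes of ribosome assembly and rRNA synthesis, 1 rose and 0 fell in KO on LP (median log2 fold 0.06, 47 above 0). It was Nop58, a core protein of the particles that methylate ribosomal RNA, with 54.8 ± 5.14 CPM in KO_LP and 44.9 ± 3.15 CPM in KO_NP (log2 fold 0.29, SE 0.0764, edgeR adjusted p = 0.0311). Of 21 translation genes of the TOP class, 1 rose and 0 fell (median 0.06), namely Npm1, a nucleolar chaperone, with 209 ± 18.5 CPM in KO_LP and 172 ± 16.2 CPM in KO_NP (log2 fold 0.28, edgeR adjusted p = 0.0275). Of 8 host genes of small nucleolar RNAs, which are TOP transcripts too, 2 rose and 0 fell, and all 8 had folds above 0 (median 0.39). Zfas1 was at 76.3 ± 29.8 CPM in KO_LP and 50.8 ± 7.09 CPM in KO_NP (log2 fold 0.59, edgeR adjusted p = 0.0387), and Snhg5 at 8.01 ± 2.57 CPM and 4.95 ± 0.50 CPM (log2 fold 0.70, edgeR adjusted p = 0.0412). Each of these 4 calls was lost without KO_LP 4, KO_LP 6, KO_NP 1, KO_NP 4 or KO_NP 5, with adjusted p up to 0.0774 for Npm1, 0.0836 for Nop58, 0.0792 for Zfas1 and 0.103 for Snhg5 over all alternatives, and the log2 fold of Zfas1 reached down to 0.35. In the other comparisons 0 genes of these lists were called. Of 7 ribosomal genes that the naming rule leaves out, 0 were called (median 0.12), with log2 folds of 0.18 for Rps3a1 and 0.13 for Fau, which encodes a fusion of a ubiquitin-like protein with a small subunit protein. Rpl36al was at 0.14, Rpl22l1 at 0.12 and Rpl7l1 at -0.11.

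In WT mice the same diet moved no ribosomal protein gene past the test. By edgeR 0 of 78 and 0 of 15165 genes were called (0.0%), with 581 genes but 0 of the 78 at an unadjusted p under 0.05, while DESeq2 called 16 genes and limma voom 6, with 0 of the 78 in either. The median log2 fold was 0.01, with 45 of 78 above 0, and it was -0.01 over all genes. With 1 library left out the median over the 78 genes lay between -0.02 and 0.03. Rps24 had 698, 683, 855, 739, 664 and 642 CPM in WT_LP 1 to 6, against 789, 665, 667, 602, 709 and 716 CPM in WT_NP 1 to 6, and the groups lay in the same range (log2 fold 0.05). Rps19 averaged 405.5 ± 40.05 CPM in WT_LP and 392.5 ± 19.9 CPM in WT_NP. The widest folds in WT were 0.16 for Rpl15 and 0.12 for Rps28 at the upper end, and -0.14 for Rps6 and -0.12 for Rpl10a at the lower end.

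**Figure D4:**
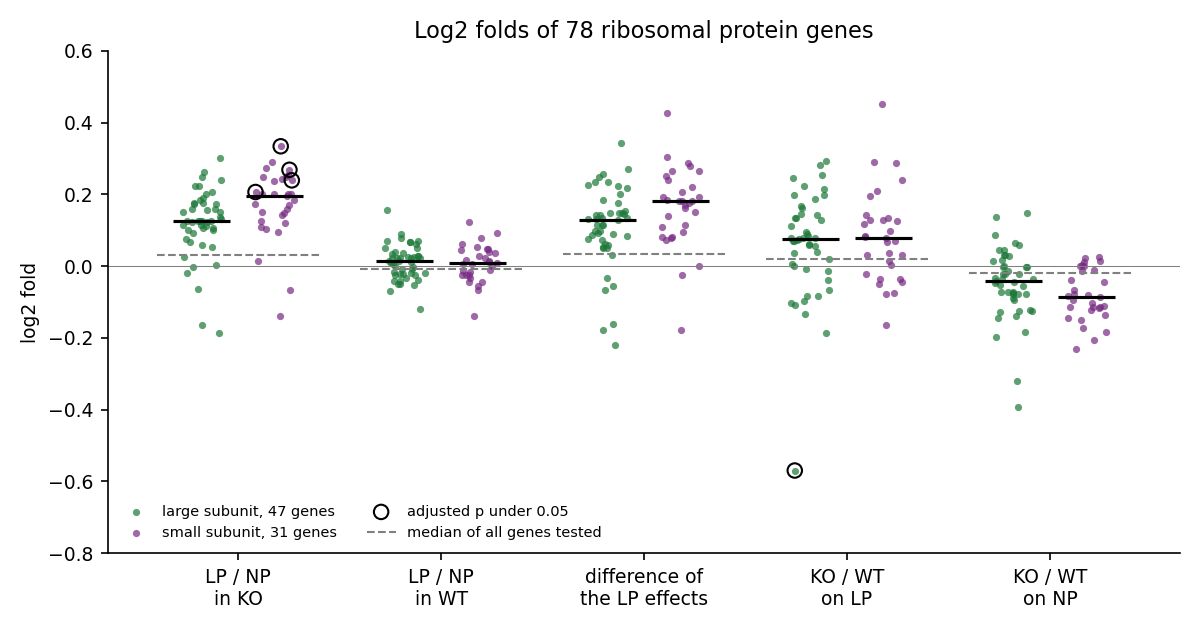
Log2 folds of the 78 genes, with 47 of the large subunit in green and 31 of the small subunit in purple, in each of the 5 comparisons. Black lines are subunit medians, dashed lines the median of all 15165 genes tested, and rings mark the 4 genes called for LP in KO and Rplp1 for KO against WT on LP.

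Whether the diet effect differed between the genotypes was tested directly, and no member was called. By edgeR 0 of 15165 genes passed (0.0%), with 2430 genes (16%) and 10 of the 78 (12.8%) at an unadjusted p under 0.05. DESeq2 called 117 genes, 0 of them ribosomal protein genes, and limma voom called 0. The median difference, KO minus WT, was 0.14 over the 78 genes, with 70 above 0, and 0.03 over all genes. The median over the 78 genes was 0.09 without KO_NP 3. The largest were those of Rps6 (0.43, SE 0.305), Rpl12 (0.34), Rps27a (0.30), Rps24 (0.29, edgeR adjusted p = 0.271) and Rps12 (0.28), and the lowest those of Rpl15 (-0.22), Rps27l (-0.18), Rplp1 (-0.18), Rpl3l (-0.16) and Rpl6 (-0.07). The rise of the 4 genes in KO is therefore not shown to differ from WT.

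Between genotypes on the same diet, Rplp1 was the only member called, and the direction of its fold turned when counts of its pseudogene copies were added. On LP the KO mice had 1 of 78 genes lower (1.28%), where 2.93% of all genes were called, 1.59% lower. Rplp1 (chromosome 9, 61913284 to 61914542) had 827, 575, 733, 885, 768 and 779 CPM in KO_LP 1 to 6, against 1123, 1022, 1151, 1340, 1058 and 1084 CPM in WT_LP 1 to 6. The groups did not overlap, as in 1.19% of all genes tested that were lower, and the log2 fold was -0.57 (SE 0.111, edgeR adjusted p = 0.00606). On NP the KO mice had 689, 905, 714, 1024, 745 and 1041 CPM in KO_NP 1 to 6, against 1023, 1169, 1106, 1102, 1168 and 1148 CPM in WT_NP 1 to 6. Here KO_NP 4 and KO_NP 6 reached the lowest WT_NP library and the other 4 did not, with a log2 fold of -0.39 (edgeR adjusted p = 0.104).

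The processed pseudogene Gm11942 (chromosome 4, 32964888 to 32965232, plus strand) ran opposite to Rplp1. It had 697, 1611, 627, 691, 602 and 669 CPM in KO_LP 1 to 6 and 562, 740, 569, 1.42, 661 and 1.68 CPM in KO_NP 1 to 6, and between 0.36 and 2.90 CPM in the 12 WT libraries. KO_NP 4 and KO_NP 6, the KO libraries in which Rplp1 stood at WT levels, were the KO libraries with almost no Gm11942 counts, and KO_LP 2 had the most Gm11942 and the least Rplp1. In edgeR its log2 fold was 9.93 for KO against WT on LP (adjusted p = 8.1e-05) and 8.89 on NP (adjusted p = 2.1e-04).

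Over the 345 coding bases of Rplp1, Gm11942 is the same at 336 (97.4%) and differs at 9, counted from the A of the start codon: G10A, C57T, A172T, G211A, C245T, A246G, C255T, C258T and C330T, with the base of Rplp1 first. Of the 296 stretches of 50 bases, 87 are identical in both. A stretch of 100 bases of that alignment shows how close the sequences are, with the 5 differing bases in capitals.
Rplp1, chromosome 9: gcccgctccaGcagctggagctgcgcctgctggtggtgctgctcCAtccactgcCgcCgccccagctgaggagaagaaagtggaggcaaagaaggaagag
Gm11942, chromosome 4: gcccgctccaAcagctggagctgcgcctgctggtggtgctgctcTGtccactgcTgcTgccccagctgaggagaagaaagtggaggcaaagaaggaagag
A read from the identical part belongs to either sequence equally well, so Rplp1 is uncertain in KO.

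When the counts of pseudogene copies were added to each gene, a choice made after seeing the data, the direction of Rplp1 turned. The sum of Rplp1 and its copies was 1581 ± 312 CPM in KO_LP, 1277 ± 234 in KO_NP, 1131 ± 113 in WT_LP and 1120.0 ± 55.9 in WT_NP. It was then called higher in KO on LP (log2 fold 0.48, edgeR adjusted p = 0.0266), and on NP the log2 fold was 0.19 (adjusted p = 0.535). Over the other alternatives, leaving out each library included, the LP fold of Rplp1 itself kept its sign. Gm17511, another pseudogene of Rplp1, on chromosome 7, was at 2.06 to 6.56 CPM in KO_LP, at 0 in KO_NP 4 and KO_NP 6 and at 2.28 to 3.48 CPM in the other KO_NP libraries, and at or under 0.54 CPM in WT. Gm10073, a further near copy, followed Rplp1, with 4.30 CPM on average in KO_LP and 8.08 in WT_LP (log2 fold -0.91, edgeR adjusted p = 0.00238).

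**Figure D5:**
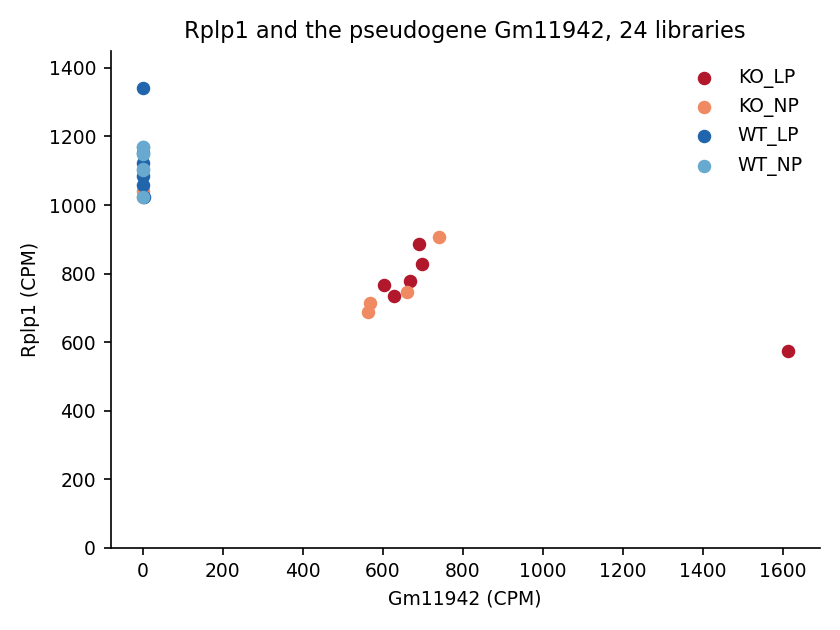
Level of Rplp1 against that of the pseudogene Gm11942 in each of 24 libraries, both in CPM, coloured by group. The 12 WT libraries and 2 KO_NP libraries lie at the left edge with at least 1022 CPM of Rplp1, and the other 10 KO libraries lie at or below 905 CPM of Rplp1 with at least 562 CPM of Gm11942.

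Copies of the other members were looked at in the same way. Of 200 copies with a row that share a stretch of 50 bases with a member, 114 were tested. For KO against WT on LP, 2 were called higher (Gm11942 and Gm17511) and 2 lower (Gm10073 and Rpl10-ps3), and on NP 2 higher (the same pseudogenes of Rplp1) and 0 lower. Rpl10-ps3, a near copy of Rpl10, averaged 6.48 CPM in KO_LP and 11.5 CPM in WT_LP (log2 fold -0.82, edgeR adjusted p = 0.00124). For LP against NP, 1 was called higher in KO, Rps16-ps2 with 1.21 CPM in KO_LP and 0.73 CPM in KO_NP, and 0 in WT. Over all genes tested, 2.93% were called for KO against WT on LP, 0.574% on NP and 7.17% for LP against NP in KO.

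The 4 pairwise comparisons share their groups, so their values are not independent of each other. Over the 78 genes, Rplp1 included, the median genotype fold on LP was 0.05 without KO_LP 2 and 0.05 with limma voom. In the main analysis these folds were centred slightly above 0, with a median of 0.08, against 0.02 over all genes. The largest were those of Rps6 (0.45, edgeR adjusted p = 0.231), Rpl35, a protein at the exit of the peptide tunnel (0.29, adjusted p = 0.113), Rps27a (0.29, adjusted p = 0.0776), Rps14 (0.29, adjusted p = 0.121) and Rpl23 (0.28, adjusted p = 0.0935). Rpl35 had 86.9, 95.5, 80.8, 88.9, 81.7 and 76.7 CPM in KO_LP 1 to 6, against 61.2, 65.7, 76.2, 64.7, 75.7 and 73.3 CPM in WT_LP 1 to 6, so the groups did not overlap although the test was missed. Of all genes tested, 1.09% were higher without overlap on LP, against 1.28% of the 78 genes (Rpl35 alone). Of the settings that kept every library, DESeq2 alone called Rps27a (log2 fold 0.28, adjusted p = 0.0428), the others gave adjusted p from 0.0773 to 0.0966, and the 12 compared libraries alone gave 0.103. On LP, 3 of 9 tested B and plasma cell markers were called higher in KO (Tnfrsf17, Jchain and Igkc). Called lower were 1 of 5 thick ascending limb markers (Kcnj1) and 2 of 6 distal tubule markers (Klk1 and Calb1), but 0 of 12 proximal tubule markers. Of all genes tested 2.93% were called, and the part of these markers in the ribosomal protein values was not tested. After Rplp1 the lowest was Rpl6, with 66.1 ± 3.73 CPM in KO_LP and 75.2 ± 11.6 CPM in WT_LP (log2 fold -0.19, edgeR adjusted p = 0.201).

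On NP, KO mice had 0 of 78 genes called against WT, where 0.574% of all genes were called, with 8 of the 78 and 1917 genes at an unadjusted p under 0.05. Folds leaned downwards, with a median of -0.06 and 60 of 78 below 0, against -0.02 over all genes. The lean rested in part on single libraries: the median over the 78 genes was -0.02 without KO_NP 1 or without KO_NP 3 and -0.09 without KO_NP 2, and without KO_NP 3 the large subunit median was -0.0016, where it was -0.0426 with all libraries. Closest to the threshold was Rpl13a, a large subunit protein that in human monocytes leaves the ribosome after interferon gamma. It had 332, 428, 348, 387, 413 and 359 CPM in KO_NP 1 to 6, against 521, 490.2, 481, 426, 477 and 432 CPM in WT_NP 1 to 6, and KO_NP 2 alone passed the lowest WT_NP library. Its log2 fold was -0.32 (SE 0.0796, edgeR adjusted p = 0.0655). It was called lower by limma voom (adjusted p = 0.0295), by DESeq2 (adjusted p = 0.00585) and without KO_NP 2 (edgeR adjusted p = 0.0443), the other settings that kept every library gave adjusted p from 0.0649 to 0.0764, and the 12 compared libraries alone gave 0.125. Rps9 had 339 to 411 CPM in KO_NP and 422 to 554 CPM in WT_NP without overlap (log2 fold -0.23, edgeR adjusted p = 0.301). Of the 78 genes 2 (2.56%) were lower without overlap, where 0.791% of all genes were lower without overlap.

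Several members lie close to Fgf21. The gene is on chromosome 7 from 45613886 to 45615490, and 14 of the 78 genes are on that chromosome. Rpl18 lies 100 kb away and Rpl13a 485 kb, and both were looked at for their position. Rpl13a was at 441 ± 37.4 CPM in KO_LP and 473 ± 35.4 CPM in WT_LP (log2 fold -0.10), beside the larger fold on NP. Rpl18 was at 219.9 ± 20.5 CPM in KO_LP and 193 ± 11.2 CPM in WT_LP (log2 fold 0.19, edgeR adjusted p = 0.119) and had a log2 fold of 0.05 on NP. Neither passed the test, and what else differs around Fgf21 was not tested.

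Within groups the ribosomal protein genes varied together. After the mean of each group was taken out, the log2 CPM of pairs of the 78 genes had a median correlation of 0.61 over the 24 libraries, against 0.25 for pairs of 712 other genes at like levels. The points share library, scaling and depth, so this is a description. Rps18, Rps13, Rps7 and Rpl11 followed the rest most closely, with median correlations of 0.80, 0.78, 0.78 and 0.78. A few members did not follow the rest, and they were singled out after their values were seen. Rpl6 ran opposite (median correlation -0.24), Rps6 and Rpl3l were near 0 (-0.04 and 0.08), and Rpl19, Rpl27, Rpl7a and Rplp1 stood at 0.11, 0.26, 0.26 and 0.27. Rps24, the gene with the largest called rise in KO on LP, had a median correlation of 0.44, rank 67 of 78.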

How the data were processed

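Total RNA of kidney cortex from 24 mice was sequenced from the 3′ end, 1 library per mouse, with forward reads of 50 bases on build GRCm38, per the labels' protocols. The deposited raw counts per gene were used for all main results; genes with a mean count under 3 are absent from that table. The authors' deposited normalized values, a signal made by dividing counts by DESeq2 size factors (DESeq2 1.22.2, per the submitters' processing notes), served for 1 alternative. No source used here names the aligner or the rule for counting reads that fit several genes.

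Symbols came from the deposited table for 14208 genes and from GENCODE M21 for 2668, and 45 stayed unmatched. Counts were scaled by TMM and tested with edgeR 4.0.16 (R 4.3.3, quasi-likelihood) over all 24 libraries with 4 group means, after edgeR's filter on low counts, and p-values were adjusted by Benjamini-Hochberg over 15165 genes with a threshold of 0.05. The 5 comparisons were LP against NP in each genotype, the difference between these, and KO against WT on each diet. Alternatives were DESeq2 1.42.0 and its size factors, limma 3.58.1 (voom, or log2 of normalized values plus 1), no filter, removal of mitochondrially encoded genes, only the 12 compared libraries and leaving out each library; summing pseudogene copies and leaving out Rplp1 were chosen after seeing the data. Tables and plots were made with Python 3.11.15, numpy 2.4.6, pandas 2.3.3 and matplotlib 3.10.9, and the fits were tested on simulated data. Values after ± are SDs over 6 libraries. The p-values measure the spread between mice, and totals of 8469102 to 21063652 counts limit the precision of genes at a few CPM.

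The members and lists were chosen with earlier results of these data known. Named genes were the members called, the 5 largest rises and 5 largest falls in a comparison, the stalk proteins, Rpsa, Rps27a, paralogs ending in l with their parents, the 3 highest and 3 lowest members, and from the lists the genes called. Rpl18 and the members that vary apart from the rest were chosen after their values were seen. Some members and listed genes that these rules name are not reported here.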

Additional observations from a re-analysis of the deposited data

Results flagged for a closer look

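Among 33 named genes in 4 groups, and over 140 sets of 6 values tested in all with Dixon's test (critical value 0.625), 4 values stood apart from the other 5 libraries of their group; chance gives about 1 in 20 such sets. Rps9 was at 553.5 CPM in WT_NP 6, against 421.5 to 446.2 CPM in the other WT_NP libraries. Rps20 was at 781.4 CPM in WT_NP 6, against 613.7 to 671.9 CPM in the others. Rpl3 was at 346.3 CPM in WT_NP 6, against 322.4 to 330.7 CPM in the others. Rpl3l was at 5.139 CPM in WT_LP 2, against 2.096 to 3.197 CPM in the other WT_LP libraries.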

How the results depend on the processing

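For LP against NP in KO, 4 members were called in the main analysis. The count was 1 with DESeq2 size factors, 1 without the filter on low counts, 1 with limma on the normalized values, 1 with the 12 compared libraries alone and 9 with DESeq2, and 0 to 5 with 1 library left out. For KO against WT on LP, 1 member was called, and 2 with DESeq2. For KO against WT on NP, 0 were called by edgeR, 1 by limma voom and 2 by DESeq2, and 0 to 1 with 1 library left out. The fold of Rplp1 for KO against WT on LP turned to 0.48 when pseudogene copies were summed with it. Taken of nuclear counts only, the mean shares were 3.95% in KO_LP, 3.34% in KO_NP, 3.71% in WT_LP and 3.61% in WT_NP. The cause of these changes was not tested. With 1 library left out, the median log2 fold of the members lay between 0.11 and 0.18 for LP in KO, -0.02 and 0.03 for LP in WT, 0.09 and 0.18 for the difference, 0.05 and 0.10 for KO on LP, and -0.09 and -0.02 for KO on NP, so that for LP in WT alone the sign changed. Of 3566 alternative values for the folds of 112 gene and comparison pairs, 2534 and 843 kept direction and call (1 library left out, and other settings), 85 and 17 lost the call, 3 and 6 gained it, and 66 and 11 changed sign without being called. No paired analysis was possible because replicate numbers follow accession order and tie no mouse of a group to a mouse of another.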
